A study of Mus musculus with 29 samples.

Results

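TRBV2, TRBV3, TRBV4 and TRBV5 are variable (V) segments of the mouse T cell receptor beta chain. They were taken from the deposited repertoire table as the beta chain rows that carry exactly 1 of these 4 names, and they are 4 of 25 single-name TRBV segments and of 173 V names over both chains. All 25 single TRBV names matched a RefSeq gene symbol (GRCm38.p6), where Trbv2 to Trbv5 stand in positions 2 to 5 among 35 Trbv genes of chromosome 6, between Trbv1 and Trbv6. Their older names in that table are Tcrb-V4, Tcrb-V16, Tcrb-V10 and Tcrb-V1, in this order. Alpha chain rows that carry the bare names V2 to V5 (54 rows, 419 counts) are other genes and were left out.

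T cell receptor transcripts were counted in 29 samples of brain and ovary metastases from an experimental metastasis model of Braf-mutated melanoma in mice. The 5 treatments were untreated (no treatment in the treatment label, vehicle in the title, day 0), an anti-PD-L1 lead-in (day 0), trametinib alone (day 3), trametinib with anti-PD-L1 from the start (day 3, here the concurrent combination) and the lead-in followed by both agents (day 3, here the lead-in combination). Trametinib is a MEK inhibitor of the MAPK pathway, and anti-PD-L1 is an antibody against a ligand of PD-1, a receptor that restrains T cells. There were 3 brain samples without treatment and 4 per agent or combination, and 2 ovary samples for every treatment. Each title holds a number, and all but 1 sample also a part, 1 or 2, of that number; the 10 brain numbers fall 2 to a treatment, and 5 of them also have ovary samples, 1 number to a treatment. Neither the meaning of a number (an animal or a pool) nor that of a part is stated, nor are strain and age. A p-value between brain treatments reflects only how much numbers of a treatment vary, which may be technical. All other p-values here reflect how much numbers of all 5 treatments vary, so differences between treatments are part of that spread. A library of receptor transcripts holds no tissue markers, so the labelled organs could not be checked.

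A beta chain gene is assembled in the thymus by joining 1 V, 1 diversity (D) and 1 joining (J) segment. The V genes studied here lie at the upstream end of the beta locus, far from the D and J segments. The junction of the 3 segments encodes the CDR3, the loop that varies most and contacts the presented peptide; its first residues come from the V gene and its last ones from the J gene. TRBD1 lies before both J clusters and can join either, whereas TRBD2 lies after the TRBJ1 cluster and normally joins TRBJ2. Receptors with the same V segment, J segment and translated CDR3 were counted as 1 clonotype, and clonotypes are named below by their segments and the number of CDR3 residues. In RNA of whole tissue, fewer cells with a segment and less receptor RNA per cell cannot be told apart.

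Beta chain (TRB) totals ran from 266 to 7067 counts and 79 to 1210 clonotypes per brain sample, and from 16179 to 51674 counts and 1521 to 3774 clonotypes per ovary sample. The 4 segments together had 68223 counts in 5063 rows, of which 49 counts with an unresolved CDR3 residue were left out. In the shallowest brain sample, a segment with 0 counts could still make up 1.13% by counting error alone. Parts of the same number often differed by more than counting error: their exact Clopper-Pearson 95% intervals did not overlap in 4, 3, 1 and 3 of 9 brain pairs for TRBV2, TRBV3, TRBV4 and TRBV5, and in 4, 4, 3 and 4 of 5 ovary pairs. Parts were summed per number before any test, and a mean ± SD over samples counts parts that are not independent.

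The 4 neighbouring genes were used at very different levels, with TRBV3 highest and TRBV4 lowest in the mean of both organs. TRBV3 held 8.77% ± 2.27 of TRB counts over the 10 brain numbers and 10.6% ± 2.74 over the 5 ovary numbers (mean ± SD), ranks 3 and 1 among the 25 TRBV segments. TRBV5 held 6.0% ± 1.73 and 7.40% ± 3.22 (ranks 7 and 5). TRBV2 held 3.20% ± 1.53 and 4.09% ± 0.849 (ranks 13 and 9), and TRBV4 2.76% ± 2.12 and 1.31% ± 0.463 (ranks 16 and 20). Together they made up 20.7% ± 3.88 of TRB counts in brain numbers and 23.4% ± 1.90 in ovary numbers. The order was the same among distinct clonotypes, where each clonotype counts once: TRBV3, TRBV5, TRBV2 and TRBV4 held 9.07%, 4.55%, 2.89% and 2.15% of TRB clonotypes in brain numbers and 8.79%, 4.17%, 3.0% and 2.09% in ovary numbers.

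Not every neighbour in this order was separated within each number. Among clonotypes TRBV3 exceeded TRBV5 in 10 of 10 brain and 5 of 5 ovary numbers, and among counts in 8 of 10 and 3 of 5. TRBV5 exceeded TRBV2 in counts in 10 of 10 brain and 4 of 5 ovary numbers. TRBV2 and TRBV4 were close in the brain, where TRBV2 was higher in 6 of 10 numbers, whereas in the ovary it was higher in 5 of 5.

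TRBV3 had the most distinct clonotypes of the 4 (not scaled to counts), with 2390 over all samples, against 1192 of TRBV5, 826 of TRBV2 and 614 of TRBV4. The TRBV3 share of TRB counts in brain samples was 8.61%, 10.9% and 4.30% without treatment, 3.38%, 12.4%, 8.20% and 7.62% with the lead-in, and 7.40%, 6.46%, 9.87% and 7.63% with trametinib. The concurrent combination gave 7.87%, 10.1%, 5.92% and 11.4%, and the lead-in combination 12.9%, 13.4%, 7.63% and 9.40%. All 5 groups overlapped, and the 2 highest values were both parts of number 12, where 1 clonotype with TRBJ2-3 and a 15-residue CDR3 held 4.62% of TRB counts. Ovary samples had 12.4% and 8.86% without treatment, 8.74% and 8.25% with the lead-in, 7.69% and 6.71% with trametinib, 14.3% and 12.1% with the concurrent combination, and 14% and 12.2% with the lead-in combination.

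TRBV5 ran from 2.81% to 10.7% of TRB counts in brain samples. Untreated samples had 4.64%, 2.81% and 5.29%, lead-in samples 5.64%, 7.59%, 4.16% and 2.91%, trametinib samples 5.52%, 6.93%, 6.07% and 5.08%, and concurrent samples 5.17%, 5.54%, 7.69% and 5.04%. The lead-in combination had 7.43%, 6.0%, 10.7% and 8.37%, with a mean of 8.12% ± 1.98 (n = 4) against 4.25% ± 1.28 (n = 3) in untreated samples. This was the highest group mean of TRBV5, and its samples overlapped those of the lead-in, trametinib and concurrent groups. They lay above the untreated ones, but that pair sets day 3 against day 0 and was not tested on its own. How many of all TRBV segments were separated between these groups was not counted. In the ovary the lead-in combination was the lowest group, at 3.45% and 3.41%, and the lead-in the highest, at 11% and 13.2%; the other ovary samples ran from 4.56% to 9.90%, each treatment being 1 number.

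TRBV2 held at most 6.80% of TRB counts in any sample. Its brain shares were 0.662%, 1.25% and 4.79% without treatment, 2.63%, 3.42%, 3.16% and 1.10% with the lead-in, 2.76%, 3.46%, 1.14% and 2.82% with trametinib, 2.19%, 4.32%, 1.69% and 3.60% with the concurrent combination, and 2.04%, 2.90%, 6.24% and 6.80% with the lead-in combination. The 2 highest were both parts of number 14, in which 1 clonotype with TRBJ2-7 and a 14-residue CDR3 held 3.12% of TRB counts, 48.4% of all TRBV2 counts there. Ovary shares lay between 3.04% and 5.74%.

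TRBV4 ran from 0.472% to 13.9% of TRB counts in brain samples. Untreated samples had 1.66%, 1.88% and 1.82% of TRB counts, lead-in samples 3.01%, 2.98%, 3.97% and 5.58%, and trametinib samples 1.60%, 0.472%, 2.28% and 1.98%. Samples of the concurrent combination had 1.68%, 2.22%, 13.9% and 3.41%, and those of the lead-in combination 1.58%, 1.44%, 1.67% and 1.90%. All lead-in samples thus lay above all untreated ones and above all samples of the lead-in combination. Of the 25 TRBV segments, 8% did not overlap between lead-in and untreated samples, and 16% did not overlap between the lead-in combination and the lead-in. Ovary samples went the other way in the first pair, with 1.72% and 2.02% untreated against 0.708% and 1.15% with the lead-in, and all 10 ovary samples lay between 0.562% and 2.02%.

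**Figure D1:**
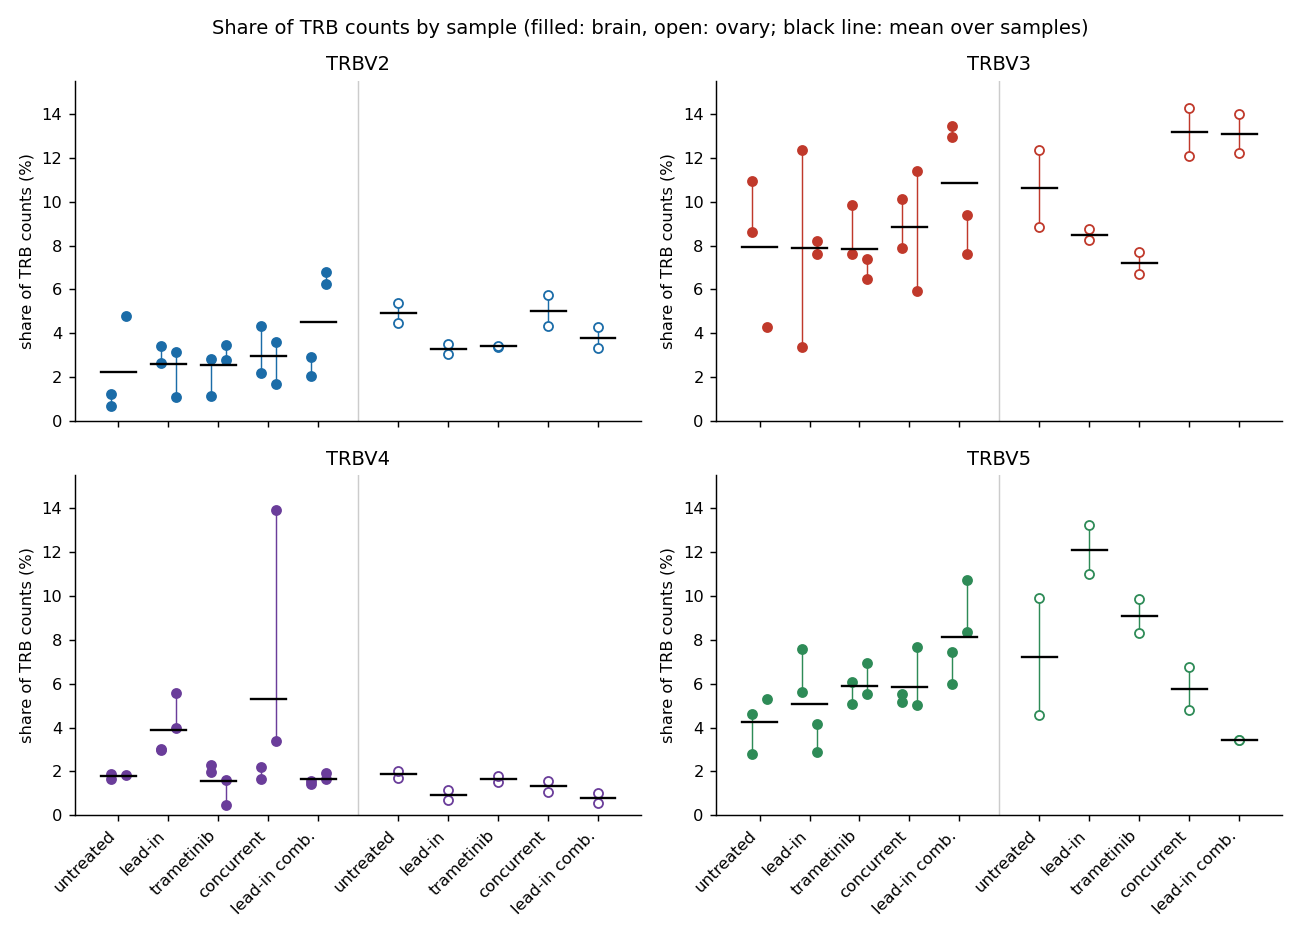
Share of TRB counts (percent) of TRBV2, TRBV3, TRBV4 and TRBV5 in each of the 29 samples by treatment, brain to the left of the grey line and ovary to the right. Each point is a sample, a coloured line joins the parts of a number and the black line is the mean over samples; the highest TRBV4 point is part 1 of brain number 6, at 13.9%.

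None of the 4 segments passed the test for a difference between brain treatments, which was run across all V segments (edgeR's quasi-likelihood test on counts summed per number, Benjamini-Hochberg adjustment over 99 segments of both chains). Of all 99 segments, 0% passed an adjusted p of 0.05 in the test of 5 treatments, and 2.02% had an unadjusted p under 0.05, with none of the 4 segments among them. The adjusted p for any difference among treatments was 0.911 for TRBV2, TRBV3 and TRBV5 and 0.801 for TRBV4 (edgeR). In each of the 5 contrasts between a pair of treatments 0% passed as well, and 4.04% to 5.05% had an unadjusted p under 0.05. TRBV4 was among the latter in 2 contrasts, concurrent combination against trametinib and lead-in combination against concurrent combination, and the other 3 segments in none.

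TRBV4 gave the largest differences of the 4 in 4 of these 5 contrasts. With concurrent anti-PD-L1 its log2 share was 1.69 ± 0.73 (SE) above trametinib alone (edgeR adjusted p = 0.831), and in the lead-in combination it was below the concurrent one (log2 difference -1.65 ± 0.70, edgeR adjusted p = 0.731). The lead-in differed from untreated by 1.03 ± 0.74 (adjusted p = 0.996) and the lead-in combination from the lead-in by -1.16 ± 0.70 (adjusted p = 0.925), both in edgeR's fit. Without number 6 the first difference was 0.37 (edgeR adjusted p = 1.00) and the second -0.33 (adjusted p = 0.963), so both rest on that number. Trametinib against untreated gave -0.17 ± 0.76 for TRBV4. In this contrast and in the lead-in combination against the lead-in, a day 3 group is set against a day 0 group, and for all 4 segments the effects of agent and day cannot be told apart there.

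For TRBV2 and TRBV3 the fitted log2 differences were smaller than their SE in all contrasts, whereas the largest ones of TRBV5 exceeded it. TRBV5 differed by 0.61 ± 0.45 between the lead-in combination and the lead-in and by 0.50 ± 0.45 between the lead-in and the concurrent combination (edgeR adjusted p = 0.933 and 0.795). TRBV2 differed by 0.59 ± 0.69 and 0.48 ± 0.68 in the same contrasts, and TRBV3 by 0.27 ± 0.41 and 0.23 ± 0.41. Over all 5 contrasts TRBV3 stayed between 0.17 and 0.34, and over the 21 TRBV segments fitted the median difference lay between -0.10 and 0.05. The SE of a TRBV4 difference was 0.70 to 0.76 over the contrasts, so differences of the size measured, or smaller ones, could not be told from 0.

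The high TRBV4 value was mostly 1 clonotype in 1 library. In part 1 of brain number 6 (concurrent combination) TRBV4 held 181 of 1300 TRB counts, 13.9% (exact Clopper-Pearson 95% interval 12.1% to 15.9%). A clonotype with TRBJ2-3 and a 14-residue CDR3 had 132 of these counts, 10.2% of the library, whereas part 2 of the same number held 1 of its 133 counts. Without it TRBV4 was 4.2% in part 1. Part 2 had a TRBV4 share of 3.41%, and a different largest clonotype. The mean of the concurrent group was 5.31% ± 5.79 (n = 4), and 2.43% without that library. Counted by distinct clonotypes TRBV4 was 2.94% of part 1, close to the other concurrent samples (2.13% to 2.94% over the group).

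Leaving out the largest clonotype of each segment in each number lowered TRBV4 most in relation to its size in the brain, and TRBV2 most in the ovary. The brain mean fell from 2.76% to 1.73% for TRBV4, from 6.0% to 4.5% for TRBV5, from 3.20% to 2.28% for TRBV2 and from 8.77% to 7.44% for TRBV3. In the ovary it fell from 7.40% to 5.32% for TRBV5, from 4.09% to 2.64% for TRBV2 and from 10.6% to 8.63% for TRBV3, but only from 1.31% to 1.14% for TRBV4. The separation of lead-in from untreated brain samples in TRBV4 did not hold without the largest clonotype of each sample (0.769% to 3.06% against 0.317% to 1.16%) or in clonotype shares (1.64% to 3.17% against 1.39% to 2.05%). In brain number 11, a clonotype with TRBJ1-2 and a 13-residue CDR3 held 40.4% of TRBV4 counts and 1.73% of TRB counts. In number 10, the other lead-in number, the largest TRBV4 clonotype held 0.959% of TRB counts.

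**Figure D2:**
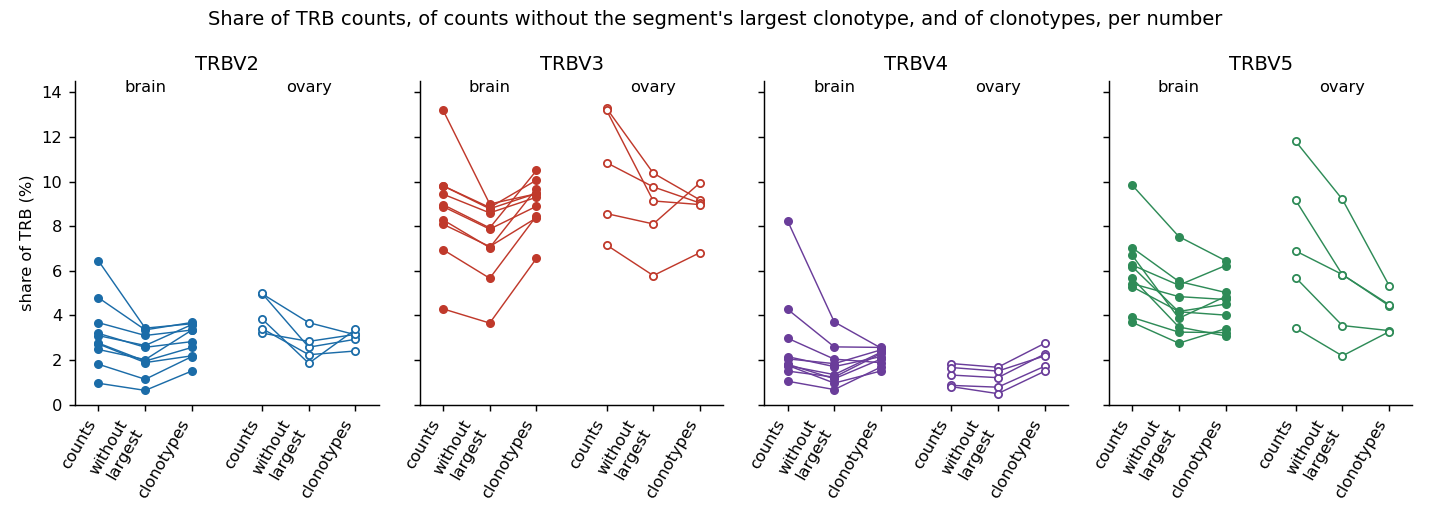
Share of TRB counts, the same without the largest clonotype of the segment, and share of distinct TRB clonotypes (percent) in each number, brain filled and ovary open, lines joining the values of a number. The TRBV4 value of brain number 6 drops from 8.24% to 3.71% without its largest clonotype and is 2.54% of clonotypes.

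Several of the large clonotypes occurred in both organs of a number. A TRBV3 clonotype with TRBJ1-1 (13 residues) held 4.47% of TRB counts in ovary number 12 and 1.36% in its brain, and the TRBV3 clonotype with TRBJ2-3 that led in the brain held 4.62% there and 0.748% in the ovary. A TRBV5 clonotype with TRBJ2-4 (16 residues) was the largest of that segment in both organs of number 10, at 2.86% in the ovary and 1.60% in the brain. A TRBV3 clonotype with TRBJ2-1 (15 residues), at 3.24% of ovary number 1, had 7 counts in the brain of that number. A clonotype with TRBJ2-7 (12 residues) was the largest TRBV4 clonotype in both organs of number 12, with 0.276% of the brain and 0.318% of the ovary counts.

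In the numbers with both organs, TRBV4 clonotypes of the brain were found in the matching ovary less often in the mean than those of the other 3 segments; this was examined after the values were seen and was not tested. For TRBV4, 4 of 36, 0 of 4, 2 of 6, 6 of 46 and 0 of 8 brain clonotypes of numbers 1, 3, 10, 12 and 13 occurred in the ovary of the same number, a mean of 11.5% ± 13.6. The mean was 43.0% ± 16.4 for TRBV3, 40.6% ± 16.3 for TRBV5, 38.9% ± 9.21 for TRBV2 and 29.5% ± 6.93 for the other 21 TRBV segments. TRBV4 was below the other 21 segments in 5 of 5 numbers, by little in number 10 (33.3% against 35.7%), and in 3 of the 5 it had 8 or fewer brain clonotypes. In the ovaries of other numbers, the mean was 2.30% for TRBV4, 4.91% for TRBV3, 5.62% for TRBV5, 1.25% for TRBV2 and 2.04% for the other segments. TRBV4 clonotypes also carried the fewest ovary counts: 7.06 ± 0.577 per clonotype over 5 numbers (6.30 to 7.70), against 19.97 ± 6.48 for TRBV5, 15.7 ± 1.47 for TRBV2, 14.2 ± 4.19 for TRBV3 and 11 ± 2.15 for the other segments (9.22 to 13.5). The part of clonotype size in the organ sharing was not tested.

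**Figure D3:**
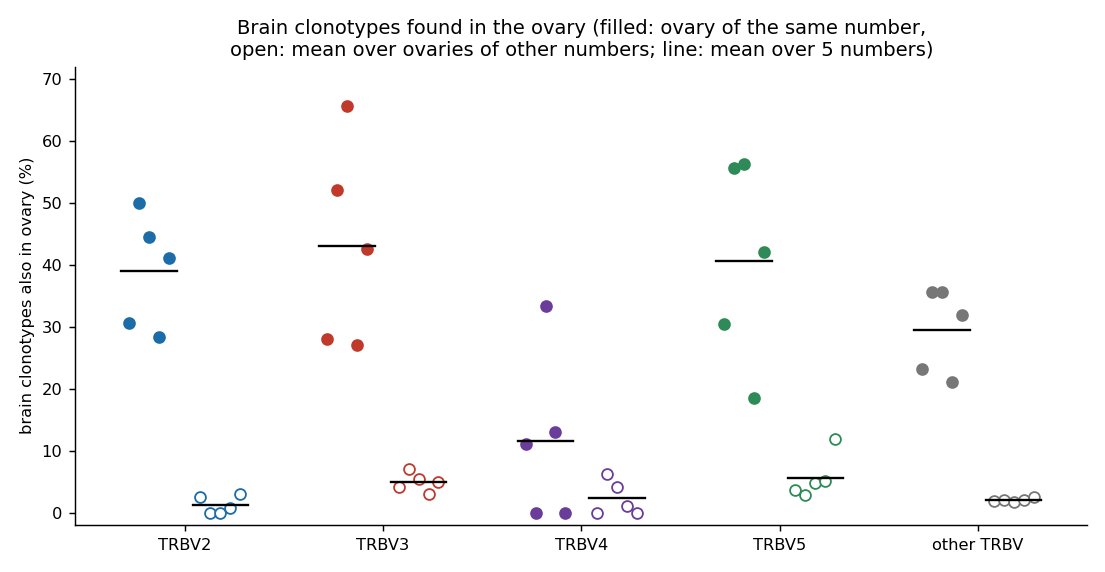
Percent of brain clonotypes of a segment that were also found in the ovary of the same number (filled) or, on average, in the ovaries of other numbers (open), for the 5 numbers with both organs. Black lines are means: 11.5% for TRBV4 in its own ovary, against 38.9% to 43.0% for TRBV2, TRBV3 and TRBV5 and 29.5% for the other TRBV segments.

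The organs were compared over the 5 numbers that have both, to ask whether segment use differs between brain and ovary metastases. The fit did not use the pairing of the organs by number. None of the 111 segments fitted passed (0%, with 13.5% at an unadjusted p under 0.05 and none of the 4 among them). The log2 share in ovary minus brain was 0.59 ± 0.36 (SE) for TRBV2, 0.34 ± 0.33 for TRBV5, 0.11 ± 0.26 for TRBV3 and -0.51 ± 0.44 for TRBV4, with edgeR adjusted p-values of 0.594, 0.711, 0.891 and 0.711. Counted by distinct clonotypes instead, the differences of TRBV2, TRBV3 and TRBV5 turned to -0.076, -0.083 and -0.12. Organ and depth move together, with all ovary libraries deeper than all brain libraries, so they cannot be told apart.

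All 4 segments were joined to TRBJ2 segments in most clonotypes, as were the other TRBV segments. TRBJ2-7 was the most frequent partner of each in the mean over numbers, in brain and ovary alike, with 22.1% of TRBV2, 22.9% of TRBV3, 28.1% of TRBV4 and 22.2% of TRBV5 clonotypes in brain numbers, against 21.6% of the other TRBV clonotypes. In the ovary these shares were 23.2%, 19.2%, 24.6% and 22.6%, against 20.6%. These means weight numbers equally, and the brain share of TRBV4 ran from 6.45% to 75% over numbers (SD 20.1). With clonotypes pooled within a brain treatment, TRBV4 was above the other segments without treatment (4 of 9 clonotypes) and with trametinib (6 of 15). In the other brain treatments it was below them, at 10.8% to 17.3% against 20.1% to 20.7%. The rarest partner in the brain was TRBJ1-5 for TRBV2 (2.36%) and TRBV4 (1.82%), TRBJ1-6 for TRBV3 (0.694%) and TRBJ2-4 for TRBV5 (3.72%). TRBJ1-6 was also the rarest TRBV3 partner in the ovary, at 1.32% against 3.11% of the other TRBV clonotypes, whereas TRBJ2-4 made up 10.4% of TRBV5 clonotypes there.

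The leading partner was not TRBJ2-7 in every brain treatment. TRBV5 was joined most to TRBJ2-7 with the lead-in (14 of 55 clonotypes), the concurrent combination (26 of 123) and the lead-in combination (40 of 193), and equally to TRBJ1-4 and TRBJ2-7 with trametinib (8 of 29 each). TRBV3 was joined most to TRBJ2-7 in all treatments but the untreated one, where TRBJ2-1 and TRBJ2-4 each had 7 of 41. TRBV4 was joined most to TRBJ2-4 with the concurrent combination (14 of 58) and the lead-in combination (17 of 81), to TRBJ1-6 with the lead-in (6 of 37), and to TRBJ2-7 without treatment (4 of 9) and with trametinib (6 of 15). TRBV2 was joined most to TRBJ2-7 with trametinib (5 of 24), the concurrent combination (14 of 68) and the lead-in combination (33 of 121). With the lead-in it was joined most to TRBJ1-1 and TRBJ2-1 (6 of 40 each, against 3 of 40 for TRBJ2-7), and without treatment to TRBJ1-4, TRBJ2-4 and TRBJ2-7 equally (3 of 13 each). Untreated TRBV5 had TRBJ2-3 and TRBJ2-7 equally (4 of 20 each). These differences between treatments were not tested. In the ovary TRBJ2-7 led for every segment and treatment except TRBV3 in the concurrent combination, where TRBJ2-1 had 84 clonotypes and TRBJ2-7 61.

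**Figure D4:**
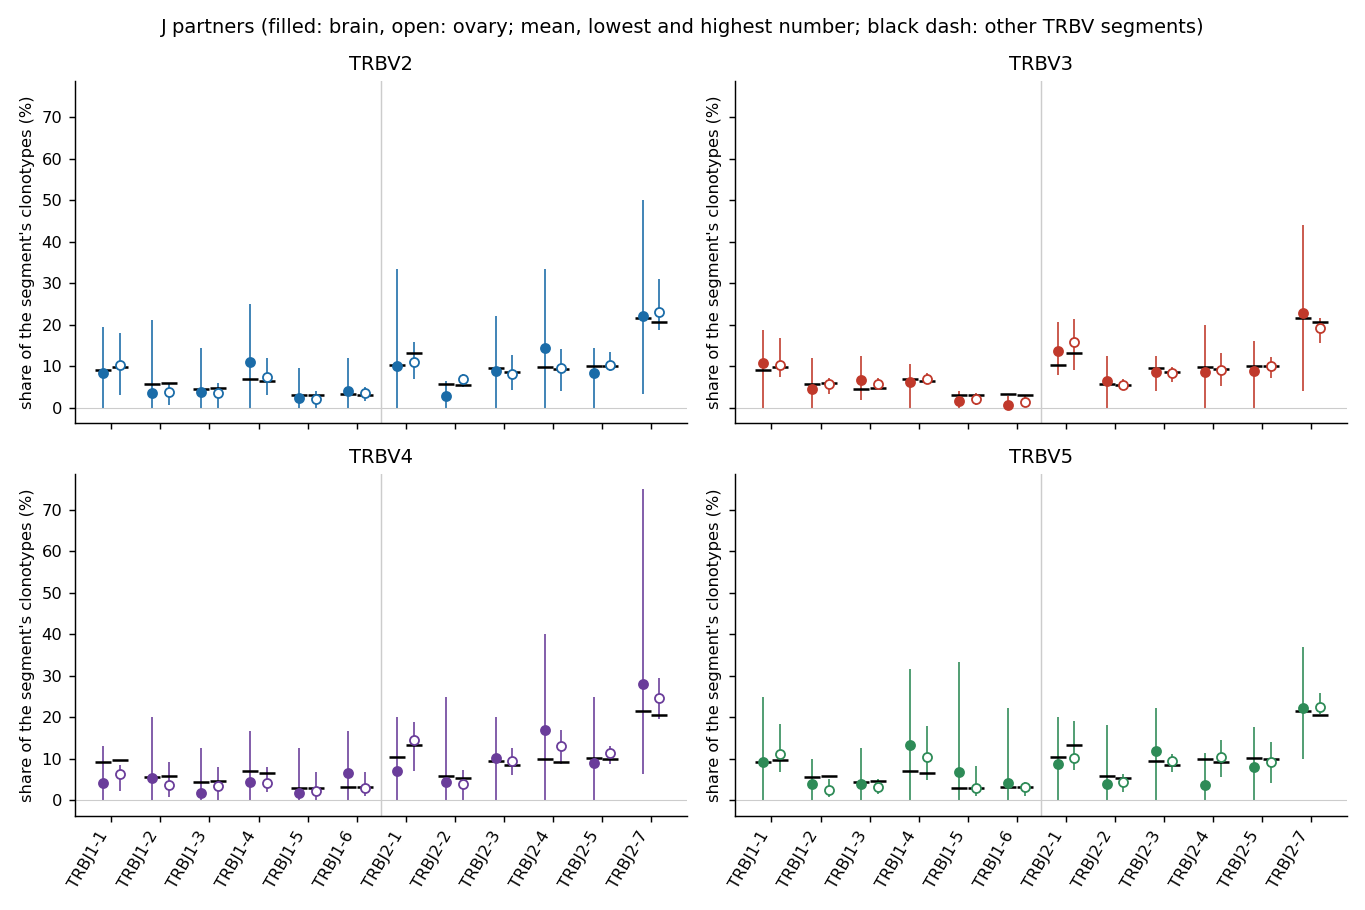
Share of each segment's distinct clonotypes joined to each TRBJ segment (percent), mean over numbers as a point, with a bar from the lowest to the highest number, brain filled (10 numbers) and ovary open (5 numbers); black dashes are the other 21 TRBV segments. TRBJ2-7 is the highest point in each panel, and TRBJ1-6 lies near 1% for TRBV3.

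TRBV5 had fewer TRBJ2 clonotypes than the other TRBV segments in the brain, but in the ovary the mean difference was small beside its spread. Over 10 brain numbers its TRBJ2 share was 33.3% at the lowest, 58.9% at the median and 72.7% at the highest, while the other 21 segments stayed between 65.1% and 69.6%. The difference from all other single-name TRBV segments of the same number was -9.18 ± 9.71 percentage points (SD), below 0 in 8 of 10 numbers (exact two-sided sign-flip permutation p = 0.00781, adjusted p = 0.0371 over 19 segments). The same test called 26.3% of the 19 segments, and 31.6% had an unadjusted p under 0.05. The lowest number, 3, had 9 TRBV5 clonotypes; without it the difference was -6.58 points (exact permutation, adjusted p = 0.0781). Over 13 alternatives the adjusted p ran from 0.0495 to 0.802 and was 0.05 or less in 1, with a difference of -4.09 points over clonotypes of at least 2 counts. In the ovary the difference was -1.05 ± 5.68 points (SD). It ran from -6.50 to 8.53 and was above 0 in 1 of 5 numbers. The ovary alternative could not pass, since the smallest exact permutation p that 5 numbers allow is 0.0625.

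TRBV4 had the highest mean TRBJ2 share of the 4 in both organs when every clonotype was counted. In brain numbers with at least 5 TRBV4 clonotypes it was 5.47 ± 8.37 points above the others (higher in 8 of 9, exact permutation p = 0.102, adjusted p = 0.241), and in the ovary 10.1 ± 3.09 points above (higher in 5 of 5, 77.2% against 67.0%; exact p = 0.0625, the smallest that 5 numbers allow, adjusted p = 0.164). Without number 11 the brain difference was 7.91 points (exact permutation, adjusted p = 0.0495), and over clonotypes of at least 2 counts it was 0.390 points (higher in 4 of 7 numbers, adjusted p = 0.977). Over those clonotypes the TRBJ2 share of TRBV4, 66.9%, was below that of TRBV3, 67.8%, so neither the excess nor the order held without clonotypes of a single count, a setting that also leaves 7 in place of 9 numbers for TRBV4. TRBV3 differed by 2.16 ± 7.42 points (10 numbers) and TRBV2 by -1.79 ± 18.7 (9 numbers), with adjusted p-values of 0.701 and 0.869 in the exact permutation test.

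CDR3 loops of TRBV5 were longer than those of the other TRBV segments in every number. The mean length of TRBV5 clonotypes was 14.1 residues in the lowest, 14.3 in the median and 14.6 in the highest brain number, and that of the other segments 13.7 to 13.98. The difference was 0.439 ± 0.190 residues (SD), positive in 10 of 10 brain numbers (exact sign-flip permutation p = 0.00195, the smallest that 10 numbers allow, adjusted p = 0.0371; 15.8% of the 19 segments were called). It was 0.534 ± 0.135 residues in the ovary, positive in 5 of 5 numbers (exact p = 0.0625, again the smallest possible). The size stayed between 0.409 and 0.534 in 13 alternatives, while the adjusted p ran from 0.0195 to 0.109 and missed 0.05 in 8, among them the ovary and 7 of the 10 settings that leave out a number.

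TRBV2 loops were longer by 0.560 ± 0.478 residues over 9 brain numbers (longer in 8, exact permutation p = 0.0117, adjusted p = 0.0520) and by 0.501 ± 0.178 in 5 of 5 ovary numbers. TRBV4 loops were shorter in the mean, with a difference of -0.273 ± 0.328 over 9 brain numbers (longer in 1, exact permutation p = 0.0352, adjusted p = 0.0742; without number 11, -0.332 and 0.0371; over clonotypes of at least 2 counts, -0.103 and 0.612, longer in 3 of 7) and -0.094 ± 0.155 in the ovary. TRBV3 differed by 0.077 ± 0.318 (exact permutation, adjusted p = 0.504). Of all 19 segments, 52.6% had an unadjusted p under 0.05 for length, so a difference from the rest was common.

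**Figure D5:**
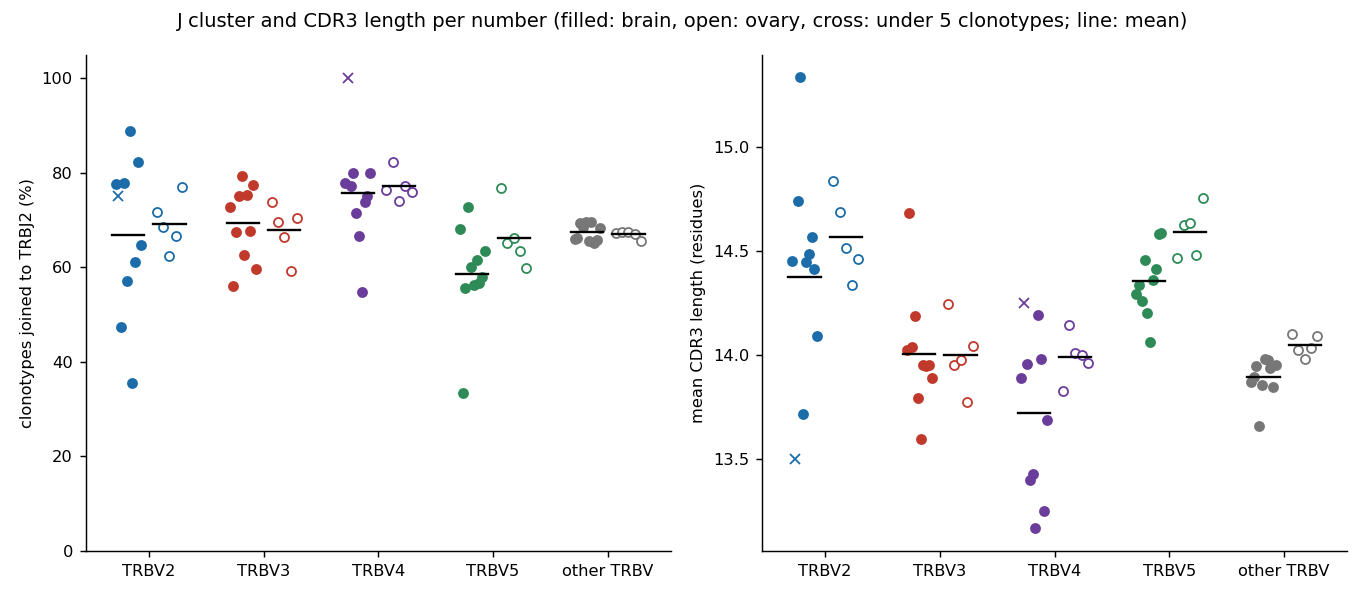
Left, percent of distinct clonotypes joined to TRBJ2, and right, mean CDR3 length in residues (axis not from 0), per number for TRBV2, TRBV3, TRBV4, TRBV5 and the other 21 TRBV segments. Brain is filled, ovary open, crosses mark numbers with under 5 clonotypes and lines are means; TRBV5 lengths lie above the other segments in all 10 brain and 5 ovary numbers.

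The first residues of the CDR3 differed among the 4 segments, except between TRBV2 and TRBV5. TRBV2 and TRBV5 shared the start CASSQ, found in 70.6% of 826 and 63.9% of 1192 clonotypes. TRBV3 began with CASSL in 44.0% of 2390. TRBV4 had no leading start: CASSP, its most frequent, made up 15.3% of 614 clonotypes and CASSY 12.4%. These first residues are mostly encoded by the V gene itself.

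The middle of the loop was described by 2 stretches chosen after the sequences were seen and not tested: DWG, which TRBD2 can encode, and GQG, which TRBD1 can encode. Among TRBJ2 clonotypes of the ovary, DWG occurred in 62 of 334 of TRBV4 (18.6%), 13.8% of TRBV5, 10.9% of TRBV3 and 9.15% of TRBV2, against 7.96% of the other TRBV segments. In brain these shares were 17.7%, 14.3%, 8.37% and 6.02%, against 7.33%. TRBV4 and TRBV5 were above the other segments in 5 of 5 ovary numbers each, and in 8 and 7 of 10 brain numbers. TRBV3 was above them in 4 of 5 ovary and 7 of 10 brain numbers, and TRBV2 in 3 of 5 and 4 of 10. Among TRBJ1 clonotypes GQG occurred in 15.8% of TRBV5 in the ovary and 13.8% in the brain, against 5.84% and 4.87% of the other segments. TRBV5 was above them in 4 of 5 ovary and 8 of 10 brain numbers. The ovary share was uneven: 22 of 65 clonotypes in number 13 and 11 of 35 in number 12. It was 13.4% in number 3 and 9.09% in number 1, and in number 10 it was below the other segments (2.86% against 6.19%). TRBV2, TRBV3 and TRBV4 had GQG in 4.15%, 5.79% and 5.05% of these clonotypes in the ovary and in 4.26%, 2.52% and 7.55% in the brain.

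A group of near-identical TRBV5 loops recurred in several numbers. CDR3s of 15 residues that began with CASSQGQG and ended with ERLFF were carried by 11 TRBV5 clonotypes, all joined to TRBJ1-4, in 5 numbers, and by 0 TRBV2 clonotypes and 0 of the other 21 segments. The J gene encodes the end of the loop and the V gene most of its start. The shared segments therefore follow largely from how the group was defined. They held 3.89% of TRB counts in ovary number 13 and 2.19% in its brain, 2.94% in brain number 12 and 1.27% in its ovary, 1.13% in ovary number 3 and 0.322% in its brain, and 0.683% in brain number 11. Of the 11, 4 had more than 1 count. The one with most counts had 1262 counts in the ovary and 28 in the brain of number 13 and 45 in the brain of number 11, and the next had 362 in the brain and 528 in the ovary of number 12. The third had 485 counts in ovary number 3, 2 in its brain and 122 in ovary number 13. The fourth had 2 counts in brain number 14. The rest had 1 count each, all in libraries of numbers 3, 12 and 13 that also held 1 of the first 3. Whether those with 1 count are separate clonotypes was not tested. The numbers that carry the group span the lead-in (11), the lead-in combination (12 and 14), trametinib (13) and no treatment (3). The group was picked because it was seen to recur, so it has no test.

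Few clonotypes of the 4 segments were shared between numbers. Those found in 2 or more numbers made up 4.02% of TRBV3, 3.69% of TRBV5, 2.06% of TRBV2 and 1.95% of TRBV4 clonotypes, against 2.84% for the other TRBV segments. The most widely shared were a pair of TRBV3 clonotypes, with TRBJ2-1 (15 residues) and with TRBJ1-3 (14 residues), each in 8 of 10 numbers. The first held 0.571% of TRB counts in brain number 14 and 0.585% in ovary number 1. The second held 0.482% in brain number 3, which was only 3 counts, and 0.381% in ovary number 3 (165 counts). TRBV5 had 3 clonotypes in 7 numbers each, with TRBJ2-7 (14 residues), TRBJ1-4 (15 residues) and TRBJ2-4 (15 residues). TRBV2 reached 4 numbers with a TRBJ2-7 clonotype (14 residues) that held 1.20% of ovary number 13, and TRBV4 reached 3 numbers with a TRBJ2-4 clonotype (14 residues).

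The 4 neighbours did not rise and fall together across brain numbers. As a description over 10 numbers, which share treatments and depth differences, the share of TRBV2 was most like those of TRBV13-3 and TRBV30 (Spearman's rho 0.60 and 0.576), and TRBV3 most like TRBV13-1 and TRBV14 (0.648 and 0.612). TRBV4 was most like TRBV31 and TRBV13-1 (0.697 and 0.455), and TRBV5 most like TRBV17 and TRBV2 (0.539 and 0.345). Only TRBV5 thus had another of the 4 among its 2 most similar segments.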

How the data were processed

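Per the labels' protocols, total RNA from AllPrep and mirVana kits went into QIAseq Immune Repertoire libraries. The deposited table holds unnormalized whole-number counts, with a row for each chain, CDR3, V and J combination and a column for each sample. No source used here states the aligner, the clonotype caller or whether counts are reads or molecules. GRCh38, a human build, is named in the submitters' processing notes, so no coordinates are given. No column marks productive chains: rows whose CDR3 holds an unresolved residue (0.0718% of the counts of the 4 segments) were left out. Counts may not be independent molecules, so intervals cover counting error only, and depth sets the precision of each share.

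Members and lists were chosen with earlier results of these data known. Counts of the parts of a number were summed. V segments that reached 10 counts in 2 or more libraries entered edgeR 4.0.16's quasi-likelihood test (log of the chain total as offset, 10 brain numbers in 1 fit, or 10 libraries for the organs; R 4.3.3) and, alternatively, DESeq2 1.42.0, at an adjusted p of 0.05. TRBJ2 share and CDR3 length were tested two-sided by exact sign-flip permutation over brain numbers with at least 5 clonotypes, adjusted over the 19 TRBV segments with at least 7 such numbers (Python 3.11.15, scipy 1.17.1). The tests were checked on simulated data. Named were the 4 segments, their largest and most shared clonotypes, highest and lowest TRBJ partners and 2 most similar segments; other features named were chosen after their values were seen. Alternatives were other scalings and filters, clonotypes in place of counts, parts as libraries, and each number left out.

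Same-numbered brain and ovary libraries were checked for pairing by the deviations of 113 V segments from the organ means. These correlated at 0.235 to 0.705 within a number and at -0.453 to 0.129 between numbers. The main organ fit did not use this pairing. A fit with the number as a block was run only as an alternative.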

Additional observations from a re-analysis of the deposited data

Results flagged for a closer look

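Over 48 groups of 4 to 10 samples or numbers, 4 held a highest or lowest value far from the rest, by Dixon's test at its 95% critical value. Chance exceeds this value in about 1 of 20 groups of independent values. Groups of brain samples hold parts of the same number, which are not independent, so this rate may not hold for them. The TRBV4 share of TRB counts was 13.9% in part 1 of number 6, the highest of the 4 brain samples with the concurrent combination. The TRBV3 share of distinct clonotypes was 7.59% in part 1 of number 13, the lowest of the 4 brain samples with trametinib. The TRBV4 share of distinct clonotypes was 2.82% in part 2 of number 14, the highest of the 4 brain samples with the lead-in combination. The TRBJ2 share of TRBV5 clonotypes was 33.3% in number 3, the lowest of the 10 brain numbers.

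Over 20 pairs of the same contrast in both organs, the TRBV4 share of counts in lead-in minus untreated samples was 2.10 percentage points in the brain and -0.938 in the ovary, with no overlap of the groups in either organ and opposite directions. This difference between organs was not tested, and the ovary has 1 number per treatment.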

How the results depend on the processing

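None of the 4 segments passed an adjusted p of 0.05 in any edgeR or DESeq2 setting run for the treatments or the organs. Over all V segments, where edgeR called 0, no filter on low counts gave 1 call (among 5 treatments, and for the lead-in combination against the concurrent one and against the lead-in), and each part as its own library gave 1 (among 5 treatments, and for the lead-in combination against the concurrent one), in each case TRAV7D-2. Leaving out each number gave 0 to 1 calls for the lead-in against untreated and 0 to 2 for the lead-in combination against the concurrent one. DESeq2 gave 4 calls in ovary against brain. With the replicate block for the paired numbers that comparison still gave 0 calls. For the TRBJ2 share, 5 segments were called: weighting by counts left 1, ovary numbers 0, clonotypes of at least 2 counts 0, and leaving out each number 0 to 3. For length, 3 were called: ovary numbers gave 0, clonotypes of at least 2 counts 7, and leaving out each number 0 to 5. In both tests the ovary setting could give no call, since the smallest exact permutation p that 5 numbers allow is 0.0625.

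Differences of single segments that changed sign, none of them past the threshold, were as follows. With distinct clonotypes, the log2 difference became -0.11 for TRBV5 (lead-in against untreated), 0.23, 0.089 and -0.12 for TRBV2, TRBV4 and TRBV5 (trametinib against untreated), -0.054, -0.026 and 0.55 for TRBV2, TRBV3 and TRBV5 (concurrent against trametinib), and -0.076, -0.083 and -0.12 for TRBV2, TRBV3 and TRBV5 (ovary against brain). Without the largest clonotype, TRBV4 became 0.11 (trametinib against untreated) and TRBV5 0.41 (concurrent against trametinib). With parts as libraries, TRBV2 became 0.10 and TRBV3 -0.0045, and with TMM scaling TRBV4 0.0038, all in trametinib against untreated. Leaving out each number moved the lead-in against untreated from -0.69 to 1.62 (TRBV2), -0.14 to 1.05 (TRBV3) and -0.20 to 0.65 (TRBV5), and trametinib against untreated from -0.95 to 1.36 (TRBV2), -0.30 to 0.89 (TRBV3) and -0.76 to 0.27 (TRBV4). It moved TRBV5 from -0.13 to 0.077 in concurrent against trametinib. The lead-in combination against the concurrent one ran from -0.37 to 1.01 (TRBV2) and -0.14 to 0.53 (TRBV3), and against the lead-in from -0.26 to 1.12 (TRBV2) and -0.11 to 0.56 (TRBV3). TRBV3 ran from -0.0032 to 0.17 in ovary against brain. The TRBJ2 difference of TRBV2 became 2.0 points in the ovary and ran from -5.04 to 2.23 when a number was left out. The length difference of TRBV3 became -0.0893 in the ovary, -0.019 with at least 2 counts, and ran from -0.00028 to 0.129 when a number was left out. The cause was not tested. TMM scaling raised the ovary against brain differences to 0.99, 0.54, -0.12 and 0.75 for TRBV2 to TRBV5. Brain depth limits all treatment contrasts.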
